A study of Mus musculus with 11 samples.

Results

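Genes of transforming growth factor beta (TGF-beta) signalling were followed across 4 populations of kidney T cells. They comprise the ligand gene Tgfb1, the receptor genes Tgfbr1, Tgfbr2 and Tgfbr3, the SMAD genes Smad2, Smad3, Smad4 and Smad7, and the repressor genes Ski and Skil. They were chosen by gene symbol, with earlier results of these data known. All 10 were found among the 46078 genes of the count table. All 10 also passed the filter on low counts, which left 16365 genes to test.

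All mice were wild type (WT). They had been immunised with recombinant mouse myeloperoxidase (MPO) and then given low-dose sheep globulin directed at mouse basement membrane, which starts glomerulonephritis. Kidneys were taken 21 days after the globulin, and T cells were sorted on CD4 or CD8, on CD127 (the IL-7 receptor alpha chain) and on PD-1 (an inhibitory receptor of stimulated T cells). The populations were CD4+CD127-PD-1+ (n = 2 libraries), CD4+CD127+PD-1- (n = 3), CD8+CD127-PD-1+ (n = 3) and CD8+CD127+PD-1- (n = 3). Each library came from cells pooled from 3 mice, so p-values measure the spread between pools and not between animals. The populations differ in both sort markers together, mice without nephritis were not analysed here, and the age of the mice is not given in the sources used here.

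TGF-beta is secreted in a latent form and has to be released before it can bind. Active ligand binds the type II receptor TGFBR2, which recruits and phosphorylates the type I receptor TGFBR1, while TGFBR3 (betaglycan) is a co-receptor that presents ligand. TGFBR1 phosphorylates SMAD2 and SMAD3, which join SMAD4 and regulate genes in the nucleus, SMAD7 blocks the receptor, and SKI and SnoN (encoded by Skil) repress SMAD-driven transcription. In T cells the pathway is known for restraining effector functions and for its part in regulatory and tissue-resident T cells.

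Libraries held 10572505 to 16057310 counts. The sort markers followed the labels: Il7r measured 13.8 to 27.2 CPM (counts scaled to a common library size) in the CD127-PD-1+ libraries and 329 to 455 CPM in the CD127+PD-1- libraries, and Pdcd1 measured 16.5 to 34.3 CPM in the CD127-PD-1+ libraries and 0.845 to 2.57 CPM in the CD127+PD-1- libraries. All 8 pan-T markers had counts in every group, with sums of 1209 to 1811 CPM in CD127-PD-1+ libraries and 1319 to 1842 CPM in CD127+PD-1- libraries, and none of the 8 passed the test in either CD127/PD-1 comparison. The groups also differed in markers of other cells. In both lineages all 12 macrophage and monocyte markers were higher in CD127-PD-1+ cells. Their summed level was 1186 to 2451 CPM in CD4+CD127-PD-1+ libraries, against 61.2 to 137 CPM in CD4+CD127+PD-1- libraries, and 1223 to 2384 CPM in CD8+CD127-PD-1+ libraries, against 84.2 to 152 CPM in CD8+CD127+PD-1- libraries. Of 6 B and plasma cell markers, 1 was lower in CD4+CD127-PD-1+ cells and 3 were higher in CD8+CD127-PD-1+ cells, and no fibroblast or tubule marker was called in edgeR. Of 8 plasmacytoid dendritic cell markers, 5 were lower in CD4+CD127-PD-1+ cells and 4 in CD8+CD127-PD-1+ cells. Mitochondrial ribosomal RNA took 35.7% to 40.8% of counts in CD8+CD127-PD-1+ libraries and 28.1% to 31.8% in the other 8 libraries.

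The main question was whether the genes differ between CD127-PD-1+ and CD127+PD-1- cells, asked separately in CD4 and in CD8 cells. In both lineages the type I receptor gene Tgfbr1 was higher in CD127-PD-1+ cells, and the co-receptor gene Tgfbr3, the common SMAD gene Smad4 and the inhibitory SMAD gene Smad7 were lower. The ligand gene Tgfb1 was called higher among CD4 cells only (the difference between lineages was not called). Tgfbr2, Smad2, Smad3, Ski and Skil were not called in either lineage. By edgeR's quasi-likelihood test with Benjamini-Hochberg adjustment, 5 of the 10 genes were called in CD4 cells (2 higher and 3 lower), where 11.7% of all genes tested were called (6.81% higher and 4.87% lower). In CD8 cells 4 of the 10 were called (1 higher and 3 lower), where 15.6% of all genes tested were called (9.05% higher and 6.56% lower). The 10 were chosen with earlier results of these data known, so their share is not independent of that choice. The median log2 fold change of the 10 genes was 0.07 in CD4 cells and 0.12 in CD8 cells, against 0.02 and 0.01 over all genes tested. The counts over all genes moved when 1 library was left out. In CD4 cells 1912 genes were called with all libraries, but 976 without CD4+CD127-PD-1+ replicate 1, 1178 without its replicate 2, 1163 without CD4+CD127+PD-1- replicate 1 and 1088 without its replicate 2. In CD8 cells 2555 were called with all libraries, but 1475 without CD8+CD127-PD-1+ replicate 3 and 1567 without CD8+CD127+PD-1- replicate 2.

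**Figure D1:**
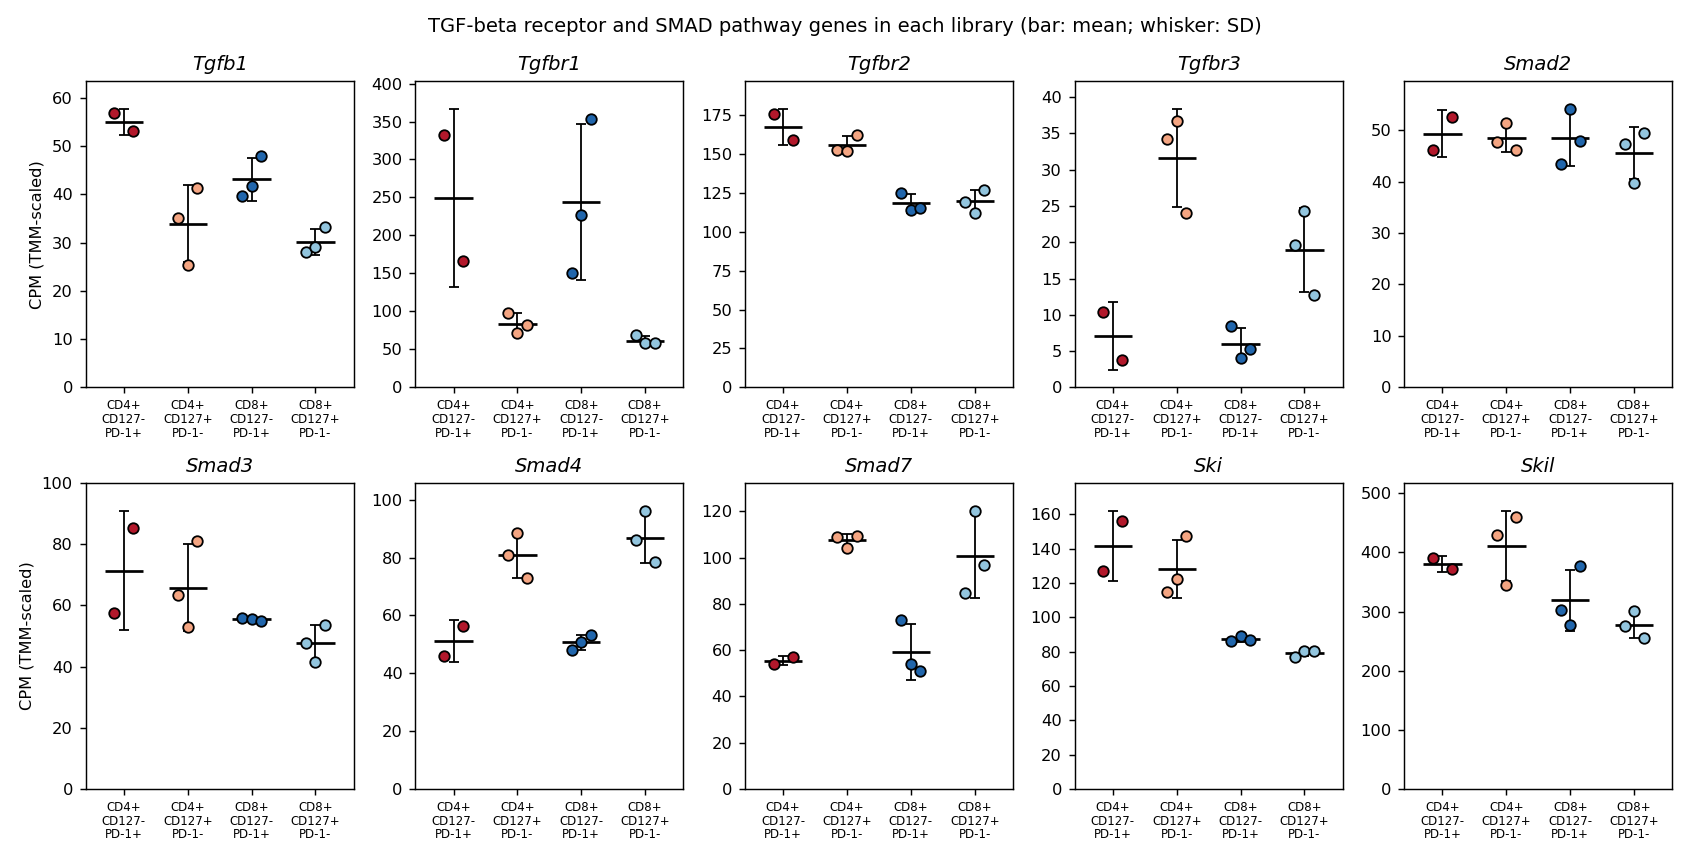
Level of each gene in CPM (TMM-scaled, vertical axis from 0) in each of the 11 libraries, by group, with each group's mean (bar) and SD (whisker). Tgfbr1 is high in the 5 CD127-PD-1+ libraries (150 to 353 CPM), where Tgfbr3, Smad4 and Smad7 are low, while Tgfbr2 and Ski separate CD4 from CD8 libraries.

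Tgfb1 (ENSMUSG00000002603, GRCm38 chromosome 7, 25687002 to 25705077, plus strand) encodes TGF-beta 1, the main TGF-beta of the immune system. It measured 57.0 and 53.1 CPM in CD4+CD127-PD-1+ libraries, against 35.1, 25.4 and 41.4 CPM in CD4+CD127+PD-1- libraries. Both CD4+CD127-PD-1+ libraries lay above all 3 others, and the log2 fold change of 0.70 (SE 0.18) was called at an adjusted p of 0.0305 in edgeR. The call was lost without any one of 4 of the 5 CD4 libraries: the adjusted p was 0.134 when CD4+CD127-PD-1+ replicate 1 was left out and 0.0841 for its replicate 2, 0.0747 for CD4+CD127+PD-1- replicate 1 and 0.0772 for its replicate 2. Fitted on the CD4 libraries alone it was 0.0713. In CD8 cells Tgfb1 measured 39.6, 41.7 and 48.1 CPM in CD127-PD-1+ libraries, against 28.1, 29.2 and 33.3 CPM in CD127+PD-1- libraries. The CD8 groups did not overlap either, but the log2 fold change of 0.52 (SE 0.17, 95% interval 0.15 to 0.88) missed the threshold in edgeR (adjusted p = 0.0584). It passed at 0.0365 with DESeq2, at 0.0348 on the CD8 libraries alone, and at 0.0241 when CD4+CD127+PD-1- replicate 2 was left out or 0.0382 for its replicate 3.

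Tgfbr1 (ENSMUSG00000007613, chromosome 4, 47353222 to 47414931, plus strand) encodes the type I receptor, the kinase that phosphorylates SMAD2 and SMAD3. It measured 332 and 166 CPM in CD4+CD127-PD-1+ libraries, against 98.1, 71.7 and 82.3 CPM in CD4+CD127+PD-1- libraries. The lower CD127-PD-1+ library was still above all 3 CD127+PD-1- libraries, and Tgfbr1 was 2.97-fold higher (log2 fold change 1.57, SE 0.32, adjusted p = 0.0103 in edgeR). Without CD4+CD127-PD-1+ replicate 1, the library at 332 CPM, the log2 fold change was 0.98 and the adjusted p was 0.110. In CD8 cells Tgfbr1 measured 150, 227 and 353 CPM in CD127-PD-1+ libraries, against 68.5, 58.1 and 58.5 CPM in CD127+PD-1- libraries. These groups did not overlap, the CD127-PD-1+ libraries were spread more widely among themselves, and Tgfbr1 was 3.95-fold higher (log2 fold change 1.98, SE 0.30, adjusted p = 0.00133 in edgeR). Leaving out any 1 of the 11 libraries kept this call, with log2 fold changes of 1.62 to 2.23.

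Tgfbr1 was high in the libraries where the macrophage and monocyte markers were high. Among the 5 CD127-PD-1+ libraries, those with 166 and 150 CPM of Tgfbr1 had marker sums of 1186 and 1223 CPM, and those with 332, 227 and 353 CPM had sums of 2451, 2384 and 2373 CPM. The 6 CD127+PD-1- libraries had 58.1 to 98.1 CPM of Tgfbr1 and marker sums of 61.2 to 152 CPM. None of the 12 markers was at 0 in any group. The part of these cells in the Tgfbr1 result, and in the other differences between CD127-PD-1+ and CD127+PD-1- cells, was not tested. In sorted bulk samples fewer cells of a type and less RNA per cell cannot be told apart, and this holds for every gene described here.

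Other cell markers moved with the populations as well. The 6 neutrophil markers summed to 24.9 to 36.8 CPM in CD4+CD127-PD-1+ libraries, against 3.99 to 5.49 CPM in CD4+CD127+PD-1- libraries (1 of 6 called higher), and to 43.0 to 302 CPM in CD8+CD127-PD-1+ libraries, against 2.91 to 14.9 CPM in CD8+CD127+PD-1- libraries (6 of 6 called higher). The 5 platelet markers summed to 10.6 to 12.8 CPM in CD4+CD127-PD-1+ libraries, against 1.58 to 1.82 CPM in CD4+CD127+PD-1- libraries, and of the 3 tested 1 was higher and 1 lower. In CD8 cells they summed to 1.97 to 17.3 CPM in CD127-PD-1+ libraries, against 1.35 to 3.19 CPM in CD127+PD-1- libraries, with 1 of the 3 tested called higher. Gp9 and Gp1bb were at 0 in the CD4+CD127-PD-1+ libraries, Gp1bb was at 0 in the CD8+CD127-PD-1+ libraries and also in the CD4+CD127+PD-1- ones, and no neutrophil marker was at 0 in a whole group. Platelets are a rich store of TGF-beta 1 protein, and the part of platelets and neutrophils in the Tgfb1 result was not tested. The 6 genes listed as natural killer (NK) and innate lymphoid markers (Ncr1, Klrb1c, Eomes, Gata3, Il1rl1 and Tyrobp) summed to 162 to 209 CPM in CD4+CD127-PD-1+ libraries, against 195 to 243 CPM in CD4+CD127+PD-1- libraries (0 of 6 called in edgeR, 1 at an unadjusted p under 0.05). In CD8 cells they summed to 210 to 276 CPM in CD127-PD-1+ libraries, against 145 to 215 CPM in CD127+PD-1- libraries, and 2 of 6 were called higher (Ncr1 and Il1rl1). The 5 regulatory T cell markers summed to 763 to 1079 CPM in CD4+CD127-PD-1+ libraries, against 510 to 885 CPM in CD4+CD127+PD-1- libraries (0 of 5 called in edgeR, 1 at an unadjusted p under 0.05). In CD8 cells they summed to 207 to 306 CPM in CD127-PD-1+ libraries, against 110 to 165 CPM in CD127+PD-1- libraries, and 1 of 5 was called higher (Ctla4, which other stimulated T cells also express). The regulatory T cell gene Foxp3 did not rise with these sums. Its CD4 means were 66.0 (CD127-PD-1+) and 73.7 CPM (CD127+PD-1-), a log2 fold change of -0.16. Its CD8 means, in the same order, were 0.96 and 1.88 CPM (-0.95, unadjusted p = 0.0357 in edgeR). Foxp3 overlapped between groups and was not called in either lineage (adjusted p 0.792 and 0.135). No marker of these lists was at 0 in a whole group, and their part in the results was not tested.

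Tgfbr2 (ENSMUSG00000032440, chromosome 9, 116084293 to 116175360, minus strand), the ligand-binding type II receptor gene, differed little between CD127-PD-1+ and CD127+PD-1- cells. It measured 175 and 159 CPM in CD4+CD127-PD-1+ libraries, against 152, 152 and 162 CPM in CD4+CD127+PD-1- libraries, and 125, 114 and 115 CPM in CD8+CD127-PD-1+ libraries, against 119, 112 and 126.96 CPM in CD8+CD127+PD-1- libraries. The groups overlapped in both lineages. The 95% interval of the log2 fold change was -0.12 to 0.33 in CD4 cells (adjusted p = 0.572 in edgeR) and -0.21 to 0.18 in CD8 cells (adjusted p = 0.941).

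Tgfbr3 (ENSMUSG00000029287, chromosome 5, 107106570 to 107289629, minus strand), the co-receptor gene, had the widest range of group means of the 10 genes on the log2 CPM scale (2.41). It measured 10.4 and 3.76 CPM in CD4+CD127-PD-1+ libraries, against 34.2, 36.7 and 24.01 CPM in CD4+CD127+PD-1- libraries. Both CD127-PD-1+ values were below all 3 others, and Tgfbr3 was 4.47-fold lower (log2 fold change -2.16, SE 0.44, adjusted p = 0.00997 in edgeR). Without CD4+CD127-PD-1+ replicate 2, the library at 3.76 CPM, the log2 fold change was -1.59 and the adjusted p 0.0574. In CD8 cells Tgfbr3 measured 8.47, 4.11 and 5.36 CPM in CD127-PD-1+ libraries, against 19.7, 24.3 and 12.8 CPM in CD127+PD-1- libraries. The CD8 groups did not overlap, and Tgfbr3 was 3.15-fold lower (log2 fold change -1.66, SE 0.38, adjusted p = 0.0128 in edgeR). That call was lost without CD8+CD127-PD-1+ replicate 2 (adjusted p = 0.0564) or 3 (0.0556) and without CD8+CD127+PD-1- replicate 2 (0.0515).

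The lowest library held 55 Tgfbr3 counts and the highest 478. Tgfbr3 lies over 4 other annotated genes, of which RP23-24K16.3 overlaps its exons on the same strand and had 357 counts over all libraries, so some of its reads could not be assigned with certainty. The plasmacytoid dendritic cell markers moved the same way. Their sum was 455 and 129 CPM in CD4+CD127-PD-1+ libraries, against 1416, 682 and 780 CPM in CD4+CD127+PD-1- libraries, and 277, 210 and 260 CPM in CD8+CD127-PD-1+ libraries, against 1103, 543 and 527 CPM in CD8+CD127+PD-1- libraries. None of the 8 markers was at 0 in any group, and their part in the Tgfbr3 result was not tested. Endothelial markers were lower as well (2 of 4 tested in each lineage), with sums of 62.7 to 65.3 CPM in CD4+CD127-PD-1+ libraries, against 122 to 155 CPM in CD4+CD127+PD-1- libraries, and 29.1 to 48.4 CPM in CD8+CD127-PD-1+ libraries, against 66.0 to 97.8 CPM in CD8+CD127+PD-1- libraries.

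**Figure D2:**
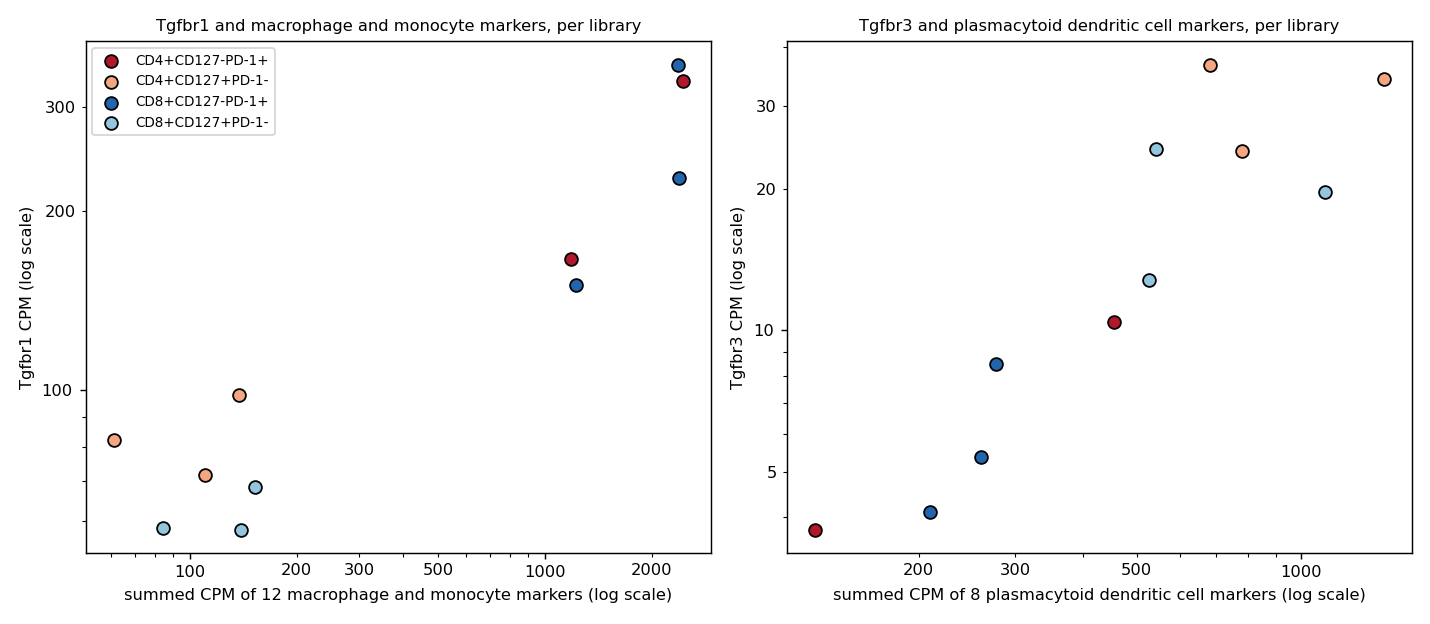
Left, Tgfbr1 level against the summed level of 12 macrophage and monocyte markers; right, Tgfbr3 level against the summed level of 8 plasmacytoid dendritic cell markers, in CPM on log axes, with 1 point for each of the 11 libraries. The 5 CD127-PD-1+ libraries lie at 1186 to 2451 CPM on the left axis of markers and at 129 to 455 CPM on the right one, apart from the 6 CD127+PD-1- libraries on both.

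Because TGF-beta signals through a complex of type I and type II receptors, the receptor transcripts were also set against each other within each library, per kilobase of exon. The ratio of Tgfbr1 to Tgfbr2 was 1.84 ± 0.752 in CD4+CD127-PD-1+ libraries (SD, n = 2) and 0.678 ± 0.114 in CD4+CD127+PD-1- libraries (SD, n = 3). In CD8 cells it was 2.61 ± 1.17 in CD127-PD-1+ libraries and 0.649 ± 0.0713 in CD127+PD-1- libraries (SD, n = 3 each). Tgfbr1 thus exceeded Tgfbr2 in all 5 CD127-PD-1+ libraries and was below it in all 6 CD127+PD-1- libraries. The two-sided exact permutation p was 0.1 in each lineage, which is the smallest these group sizes allow. The ratio of Tgfbr3 to Tgfbr2 was 0.0520 ± 0.0316 in CD4+CD127-PD-1+ libraries and 0.256 ± 0.0624 in CD4+CD127+PD-1- libraries, and 0.0626 ± 0.0203 in CD8+CD127-PD-1+ libraries and 0.201 ± 0.0727 in CD8+CD127+PD-1- libraries (exact permutation p = 0.1 in each).

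**Figure D3:**
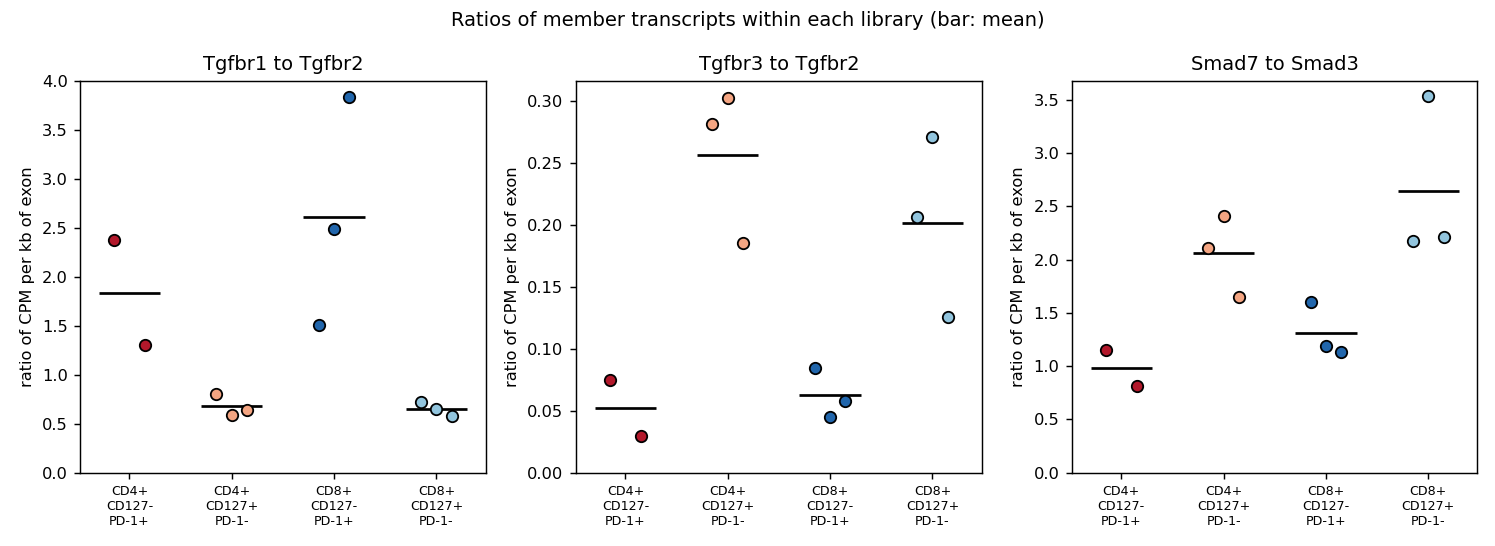
Ratios of Tgfbr1 to Tgfbr2, Tgfbr3 to Tgfbr2 and Smad7 to Smad3 within each library, from CPM per kilobase of exon (vertical axes from 0), with points for the 11 libraries and bars for group means. The 5 CD127-PD-1+ libraries have the higher Tgfbr1 to Tgfbr2 ratios and the lower ratios in the other 2 panels.

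The sequences just upstream of an annotated start are shown for the receptor gene that was higher in both lineages (Tgfbr1), the ligand gene (Tgfb1) and the receptor gene not called in either CD127/PD-1 comparison (Tgfbr2). Each is the 250 bases before the start, from RefSeq (GRCm38.p6), which matched 5 of the 10 genes. They are read on the gene's own strand, with GC boxes (GGGCGG, or CCGCCC on the other strand) in capitals.
Tgfbr1, chr4:47352972-47353221, plus strand: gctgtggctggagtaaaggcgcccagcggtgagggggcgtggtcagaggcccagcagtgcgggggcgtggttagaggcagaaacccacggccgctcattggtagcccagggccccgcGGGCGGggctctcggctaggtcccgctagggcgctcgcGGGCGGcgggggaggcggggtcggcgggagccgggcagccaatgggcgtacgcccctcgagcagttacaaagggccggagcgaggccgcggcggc
Tgfb1, chr7:25686752-25687001, plus strand: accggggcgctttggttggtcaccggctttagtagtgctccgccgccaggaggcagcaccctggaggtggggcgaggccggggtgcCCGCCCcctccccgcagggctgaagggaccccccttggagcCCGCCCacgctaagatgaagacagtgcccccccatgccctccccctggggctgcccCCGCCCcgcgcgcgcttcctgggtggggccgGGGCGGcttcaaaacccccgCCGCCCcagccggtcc
Tgfbr2, chr9:116175364-116175613, minus strand: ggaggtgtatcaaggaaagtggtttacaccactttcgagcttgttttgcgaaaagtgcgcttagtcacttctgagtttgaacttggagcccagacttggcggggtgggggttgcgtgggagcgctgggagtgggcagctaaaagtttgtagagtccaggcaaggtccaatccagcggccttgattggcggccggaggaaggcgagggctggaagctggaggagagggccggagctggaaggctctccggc

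The Tgfbr1 window was 74.8% G and C with 2 GC boxes, the Tgfb1 window 75.2% with 5 and the Tgfbr2 window 58.4% with 0. Over 32851 windows of the same length, 32.7% held a GC box and the median G and C content was 52.4%. The SMAD-binding letters CAGACA (either strand) were in none of these 3 windows and in 17.1% of all windows. A second annotated start of Tgfbr1, with its window at chr4:47385966-47386215, held 1 such match. The palindrome GTCTAGAC was in none of the printed windows and in 0.167% of all windows.

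The receptor-activated SMAD genes did not pass the test in either CD127/PD-1 comparison. Smad2 (ENSMUSG00000024563, chromosome 18, 76241580 to 76310963) measured 46.1 and 52.6 CPM in CD4+CD127-PD-1+ libraries, against 47.7, 51.4 and 46.2 CPM in CD4+CD127+PD-1- libraries. In CD8 cells it measured 43.4, 54.1 and 48.0 CPM in CD127-PD-1+ libraries, against 47.3, 39.8 and 49.4 CPM in CD127+PD-1- libraries. The groups overlapped in both lineages, and the 95% interval of the log2 fold change was -0.28 to 0.33 in CD4 cells and -0.18 to 0.37 in CD8 cells. Its group means spanned only 0.12 on the log2 CPM scale, the narrowest of the 10 genes. Smad3 (ENSMUSG00000032402, chromosome 9, 63646767 to 63757994) measured 57.6 and 85.3 CPM in CD4+CD127-PD-1+ libraries, against 63.4, 52.8 and 81.0 CPM in CD4+CD127+PD-1- libraries. It measured 56.0, 55.5 and 55.1 CPM in CD8+CD127-PD-1+ libraries, against 47.7, 41.6 and 53.6 CPM in CD8+CD127+PD-1- libraries. The CD4 groups overlapped and the CD8 groups did not, but neither log2 fold change was called (0.12, 95% interval -0.31 to 0.55, in CD4 cells, and 0.22, 95% interval -0.17 to 0.61, in CD8 cells). The group means of Smad3 spanned 0.56 on the log2 CPM scale, from the highest in CD4+CD127-PD-1+ cells to the lowest in CD8+CD127+PD-1- cells.

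Smad4 (ENSMUSG00000024515, chromosome 18, 73639009 to 73703780), whose product is the shared partner of the receptor-activated SMADs, was lower in CD127-PD-1+ cells of both lineages. It measured 46.1 and 56.3 CPM in CD4+CD127-PD-1+ libraries, against 80.8, 88.6 and 73.0 CPM in CD4+CD127+PD-1- libraries. The groups did not overlap, and Smad4 was 1.58-fold lower (log2 fold change -0.66, SE 0.14, adjusted p = 0.0110 in edgeR). Without CD4+CD127-PD-1+ replicate 1 the log2 fold change was -0.52 and the adjusted p 0.0937. In CD8 cells Smad4 measured 48.1, 50.9 and 53.1 CPM in CD127-PD-1+ libraries, against 85.9, 96.3 and 78.7 CPM in CD127+PD-1- libraries. These groups lay further apart than their own spread, with Smad4 1.71-fold lower (log2 fold change -0.78, SE 0.12, adjusted p = 0.0015 in edgeR), and the call was kept without any 1 of the 11 libraries (adjusted p up to 0.00811).

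Smad7 (ENSMUSG00000025880, chromosome 18, 75367529 to 75395935), the inhibitory SMAD and itself a target of the pathway, was also lower in both. It measured 54.1 and 56.8 CPM in CD4+CD127-PD-1+ libraries, against 109, 104 and 109 CPM in CD4+CD127+PD-1- libraries. Libraries of each group lay close together, and Smad7 was 1.94-fold lower (log2 fold change -0.95, SE 0.18, adjusted p = 0.00651 in edgeR). In CD8 cells it measured 73.2, 54.0 and 50.9 CPM in CD127-PD-1+ libraries, against 84.7, 120 and 96.7 CPM in CD127+PD-1- libraries. The groups did not overlap, and Smad7 was 1.69-fold lower (log2 fold change -0.76, SE 0.15, adjusted p = 0.00669 in edgeR). Both calls were kept without any 1 of the 11 libraries (adjusted p up to 0.0481 in CD4 cells and 0.0347 in CD8 cells). Per kilobase of exon, the ratio of Smad7 to Smad3 was 0.985 ± 0.237 in CD4+CD127-PD-1+ libraries (SD, n = 2) and 2.06 ± 0.382 in CD4+CD127+PD-1- libraries (SD, n = 3), and 1.31 ± 0.255 in CD8+CD127-PD-1+ libraries and 2.64 ± 0.777 in CD8+CD127+PD-1- libraries (SD, n = 3 each), with an exact permutation p of 0.1 in each lineage. The ratios of Tgfbr1, Tgfbr3 and Smad7, and that of Smad4 to Smad3, each set a called gene against one not called. They are therefore no separate evidence. For the ratios not given above, the exact permutation p in CD4 and CD8 cells was 0.2 and 0.1 for Smad4 to Smad3. It was 0.9 and 0.3 for Smad2 to Smad3, and 0.4 and 0.9 for Skil to Ski.

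The repressor genes did not pass the test in either CD127/PD-1 comparison. Ski (ENSMUSG00000029050, chromosome 4, 155154075 to 155222592) measured 126.95 and 156 CPM in CD4+CD127-PD-1+ libraries, against 115, 122 and 147 CPM in CD4+CD127+PD-1- libraries. It measured 86.1, 89.2 and 87.0 CPM in CD8+CD127-PD-1+ libraries, against 76.9, 80.6 and 80.2 CPM in CD8+CD127+PD-1- libraries. The CD4 groups overlapped and the CD8 groups did not, and the log2 fold change was 0.14 in each lineage (95% interval -0.13 to 0.42 in CD4 cells and -0.11 to 0.39 in CD8 cells). Skil (ENSMUSG00000027660, chromosome 3, 31095058 to 31122577) measured 390 and 371 CPM in CD4+CD127-PD-1+ libraries, against 429, 345 and 460 CPM in CD4+CD127+PD-1- libraries. It measured 302, 278 and 377 CPM in CD8+CD127-PD-1+ libraries, against 277, 301 and 256 CPM in CD8+CD127+PD-1- libraries. The Skil groups overlapped in both lineages (log2 fold change -0.11, 95% interval -0.44 to 0.22, in CD4 cells, and 0.20, 95% interval -0.10 to 0.50, in CD8 cells).

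**Figure D4:**
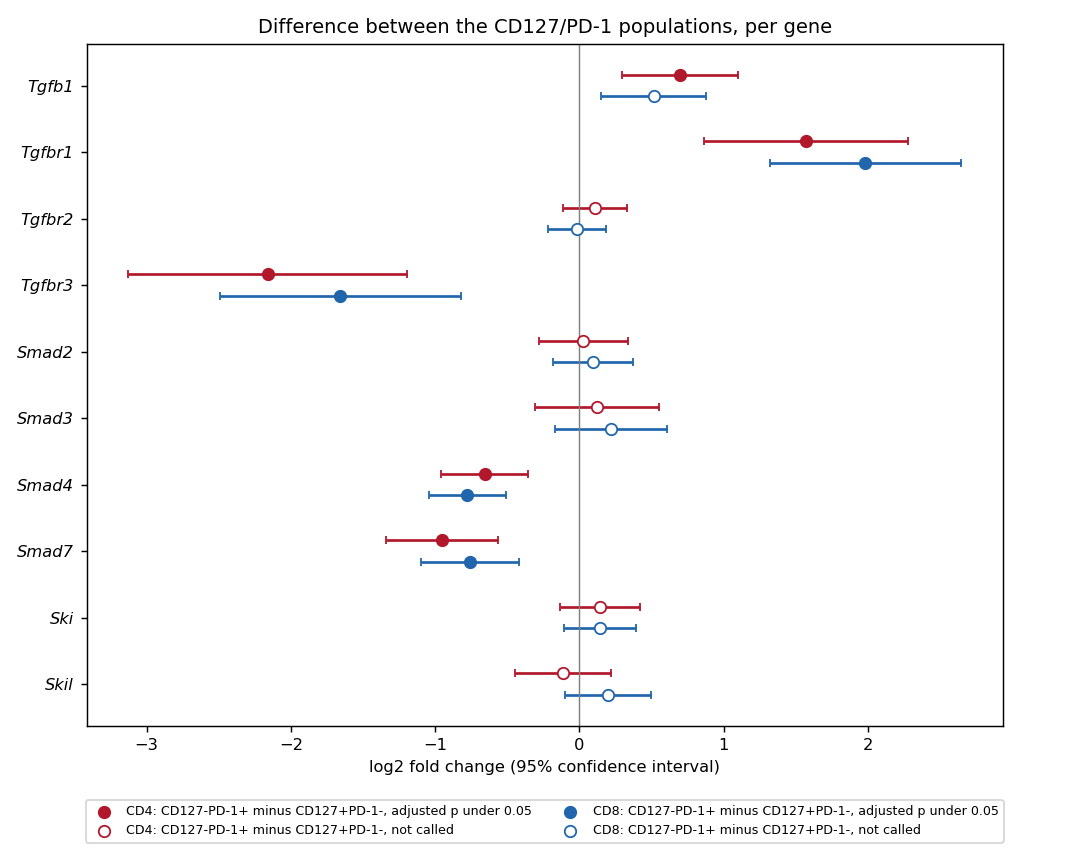
Log2 fold change of CD127-PD-1+ over CD127+PD-1- cells with its 95% interval for each of the 10 genes, in CD4 cells (red) and CD8 cells (blue), filled where the adjusted p is under 0.05. Tgfbr1 lies to the right in both lineages (1.57 and 1.98), and Tgfbr3, Smad4 and Smad7 lie to the left.

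The CD4 and CD8 changes were then compared directly. None of the 10 genes was called for a difference between the CD4 and CD8 changes in edgeR, where 1 of the 16365 genes tested was called (0.00611%), and no gene of the 10 (0) had an unadjusted p under 0.05 or was called by DESeq2 or limma-voom. The smallest unadjusted p was that of Skil (0.155). The 95% interval of the difference was wide for Tgfbr1, at -1.38 to 0.55 on the log2 scale. For Smad4 the interval was -0.28 to 0.52 and for Smad7 -0.70 to 0.31.

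Where the lineages differed was in the levels of Ski and Tgfbr2, both higher in CD4 cells than in CD8 cells. Within CD127-PD-1+ cells 2 of the 10 genes were called in edgeR, both higher in CD4 cells, where 2.44% of all genes tested were called. Ski, at 126.95 and 156 CPM in CD4+CD127-PD-1+ libraries and 86.1 to 89.2 CPM in CD8+CD127-PD-1+ libraries, was 1.62-fold higher (log2 fold change 0.69, SE 0.13, adjusted p = 0.0142). Tgfbr2, at 175 and 159 CPM in CD4+CD127-PD-1+ libraries and 114 to 125 CPM in CD8+CD127-PD-1+ libraries, was 1.42-fold higher (log2 fold change 0.50, SE 0.10, adjusted p = 0.0230). Neither gene's groups overlapped. Both calls were lost on the CD127-PD-1+ libraries alone (adjusted p 0.0638 for Ski and 0.126 for Tgfbr2). Ski was also lost without CD4+CD127-PD-1+ replicate 2 (0.181) and without CD8+CD127-PD-1+ replicate 2 (0.0512) or 3 (0.0548). Tgfbr2 was lost without either CD4+CD127-PD-1+ library (0.151 without replicate 1 and 0.0911 without replicate 2), without CD8+CD127-PD-1+ replicate 2 (0.0923) or 3 (0.0926), and without CD4+CD127+PD-1- replicate 1 (0.0517).

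Within CD127+PD-1- cells 3 of the 10 genes were called in edgeR, all higher in CD4 cells, where 4.42% of all genes tested were called. Ski measured 115, 122 and 147 CPM in CD4+CD127+PD-1- libraries, against 76.9, 80.6 and 80.2 CPM in CD8+CD127+PD-1- libraries, a log2 fold change of 0.69 (SE 0.11, adjusted p = 0.00475). This call was kept without any 1 of the 11 libraries (adjusted p up to 0.0262). Tgfbr2 measured 152 to 162 CPM in CD4+CD127+PD-1- libraries and 112 to 126.96 CPM in CD8+CD127+PD-1- libraries (log2 fold change 0.38, SE 0.09, adjusted p = 0.0372). Skil measured 345 to 460 CPM in CD4+CD127+PD-1- libraries and 256 to 301 CPM in CD8+CD127+PD-1- libraries (log2 fold change 0.57, SE 0.14, adjusted p = 0.0380). The groups did not overlap for any of the 3, but leaving out 1 library could end the Tgfbr2 and Skil calls. Tgfbr2 was lost without any one of the 6 CD127+PD-1- libraries (adjusted p 0.0509 to 0.166), without CD4+CD127-PD-1+ replicate 2 (0.0556) and without CD8+CD127-PD-1+ replicate 2 (0.0527) or 3 (0.0565). It was also lost on the CD127+PD-1- libraries alone (0.0586) and with no filter on low counts (0.0884). Skil was lost without CD4+CD127-PD-1+ replicate 2 (0.0558) and without any one of the 6 CD127+PD-1- libraries (0.0611 to 0.177) other than CD4+CD127+PD-1- replicate 2. With the replicate number as a block in these 6 libraries, a fit chosen after seeing the data, 6 of the 10 genes were called, all higher in CD4 cells, where 11.9% of all genes tested were called. Tgfbr2 was called in this fit (adjusted p = 0.0161). Those added were Tgfbr1 (log2 fold change 0.43, adjusted p = 0.0141), Tgfbr3 (0.76, adjusted p = 0.00436) and Smad3 (0.45, adjusted p = 0.0165). Without the block, and with all 11 libraries, Smad3 was not called (0.46, adjusted p = 0.192). The median log2 fold change of the 10 genes, CD4 over CD8, was 0.25 in CD127-PD-1+ cells and 0.41 in CD127+PD-1- cells, against -0.02 and -0.01 over all genes tested.

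The order of levels, per kilobase of exon, differed between the populations. In CD4+CD127-PD-1+ cells Skil (39.3 CPM per kilobase) and Tgfbr1 (38.1) had the highest means, with overlapping libraries, followed by Ski (25.4) and Tgfbr2 (20.4). Tgfbr1 and Ski overlapped too: in replicate 2 Ski (28.1) was above Tgfbr1 (25.4). In CD4+CD127+PD-1- cells Skil (42.4 CPM per kilobase) stood alone at the top, Smad7 (23.8), Ski (23.0), Smad4 (21.8) and Tgfbr2 (19.0) followed with neighbours that overlapped, and Tgfbr1 came after them at 12.9. In CD8+CD127-PD-1+ cells Tgfbr1 (37.3 CPM per kilobase) and Skil (32.9) overlapped at the top. In CD8+CD127+PD-1- cells Skil (28.7 CPM per kilobase) was followed by Smad4 (23.4) and Smad7 (22.3), which overlapped, and Tgfbr1 stood at 9.44. Tgfbr3 had the lowest mean in all 4 populations, at 1.08 CPM per kilobase in CD4+CD127-PD-1+ cells, 4.84 in their CD127+PD-1- counterparts, 0.914 in CD8+CD127-PD-1+ cells and 2.89 in CD8+CD127+PD-1- cells, and Smad2 was next above it in each. In CD4+CD127+PD-1- cells the libraries of Tgfbr3 and Smad2 overlapped.

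Taking Tgfbr3 and Tgfbr1, the genes with the widest ranges of group means, the genes with the most similar profiles were sought among 4913 genes of at least moderate level, by Pearson correlation of log2 CPM over the 11 libraries. Tgfbr3 was most like Zcchc7 (r = 0.983), Arhgap15 (0.981) and Tnrc6b (0.980). Arhgap15 measured 212 ± 42.0 CPM in CD4+CD127-PD-1+ cells (SD, n = 2), compared with 350 ± 28.2 CPM in CD4+CD127+PD-1- cells (SD, n = 3). Tgfbr1 was most like Slamf9 (r = 0.989), Apobec1 (0.985) and Icosl (0.982). Apobec1 measured 136 ± 82.8 CPM in CD4+CD127-PD-1+ cells, compared with 21.8 ± 4.93 CPM in CD4+CD127+PD-1- cells, and 147 ± 58.8 CPM in CD8+CD127-PD-1+ cells, compared with 15.3 ± 3.11 CPM in CD8+CD127+PD-1- cells. These libraries share the group differences and the marker differences given above, so the correlations are a description.

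Other genes of the pathway were counted in 7 lists, also chosen with earlier results of these data known. Their counts stand beside the 11.7% of all genes tested that were called in CD4 cells and the 15.6% in CD8 cells, and their medians beside 0.02 and 0.01. Of 10 tested genes of TGF-beta ligands, activation and latency, 1 rose and 0 fell in CD4+CD127-PD-1+ cells, and 4 rose and 1 fell in CD8+CD127-PD-1+ cells. Itgav, the alpha-v integrin chain that releases latent TGF-beta, rose in both. It measured 222 ± 10.3 CPM in CD4+CD127-PD-1+ cells, compared with 136 ± 36.7 CPM in CD4+CD127+PD-1- cells (a log2 fold change of 0.70, SE 0.19, adjusted p = 0.0315 in edgeR), and 154 ± 15.2 CPM in CD8+CD127-PD-1+ cells, compared with 65.4 ± 2.15 CPM in CD8+CD127+PD-1- cells (1.24, SE 0.17, adjusted p = 0.000744). The CD4 call was lost without CD4+CD127-PD-1+ replicate 1 (0.135) or 2 (0.0868) and on the CD4 libraries alone (0.0843). Thbs1 (thrombospondin-1, an activator of latent TGF-beta) and Nrros (which anchors latent TGF-beta on myeloid cells) rose in CD8+CD127-PD-1+ cells, to 28.9 ± 20.7 and 102 ± 20.9 CPM, against 2.23 ± 0.116 and 55.1 ± 3.45 CPM in CD8+CD127+PD-1- cells (adjusted p 0.00212 and 0.00272). In CD4 cells Thbs1 measured 10.8 ± 5.41 CPM in CD127-PD-1+ cells, against 2.49 ± 1.43 CPM in CD127+PD-1- cells (adjusted p = 0.0559). It passed at 0.0133 without CD8+CD127-PD-1+ replicate 1, 0.0436 without its replicate 2, 0.0377 on the CD4 libraries alone, 0.00675 with DESeq2 and 0.000952 with no filter on low counts. The list's remaining calls in CD8 cells were Tgfb3, which was higher, and Lrrc32 (encoding GARP, which anchors latent TGF-beta on regulatory T cells), which was lower. Lrrc32 was very low in CD8 cells, at 0.593 ± 0.131 CPM in CD127-PD-1+ and 1.17 ± 0.255 CPM in CD127+PD-1- cells (adjusted p = 0.0470 in edgeR). In CD4 cells it measured 9.50 ± 1.97 CPM in CD127-PD-1+ and 14.1 ± 1.51 CPM in CD127+PD-1- cells, and was not called (adjusted p = 0.159). The list's median log2 fold change was 0.66 in CD4 cells and 0.52 in CD8 cells, against 0.02 and 0.01 over all genes tested.

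Of 9 tested activin, BMP and accessory receptor genes, 1 rose in CD4+CD127-PD-1+ cells and 3 rose in CD8+CD127-PD-1+ cells, and none fell in edgeR. Bmpr2, a type II BMP receptor, measured 76.6 ± 19.0 CPM in CD8+CD127-PD-1+ cells, compared with 30.5 ± 7.58 CPM in CD8+CD127+PD-1- cells (a log2 fold change of 1.33, adjusted p = 0.00397). The type I receptors Acvr1 and Acvrl1 were low but rose as well, to 8.26 ± 3.81 and 11.8 ± 3.22 CPM in CD8+CD127-PD-1+ cells, against 1.33 ± 1.04 and 2.65 ± 2.02 CPM in CD8+CD127+PD-1- cells (adjusted p 0.0117 and 0.0135). Acvr1 was lost without CD8+CD127-PD-1+ replicate 3 (0.0531), and Acvrl1 without that library (0.0552) or CD8+CD127+PD-1- replicate 2 (0.0534). The 1 gene called in CD4 cells was Eng, the accessory receptor endoglin, at 4.50 ± 0.860 CPM in CD4+CD127-PD-1+ cells, compared with 1.04 ± 0.279 CPM in CD4+CD127+PD-1- cells (adjusted p = 0.0250 in edgeR). The CD4 count was 0 without any one of the 5 CD4 libraries and 0 with limma-voom. It was 2 without CD8+CD127+PD-1- replicate 1, 4 without its replicate 3, 3 on the CD4 libraries alone, and 4 with DESeq2 or with no filter on low counts. In CD4 cells Bmpr2 measured 87.5 ± 26.3 CPM in CD127-PD-1+ cells, against 49.3 ± 9.24 CPM in CD127+PD-1- cells (log2 fold change 0.83, adjusted p = 0.0681 in edgeR and 0.0358 with DESeq2). Acvr1 (1.89) and Acvrl1 (1.87) likewise had adjusted p of 0.0770 and 0.0503 in edgeR, and 0.0297 and 0.0118 with DESeq2. The list's median log2 fold change was 0.83 in CD4 cells and 0.30 in CD8 cells. In the lineage where each was called, the genes called were higher in CD127-PD-1+ libraries, which also had more macrophage and monocyte marker RNA. This holds for any gene called higher in CD127-PD-1+ cells. Eng was not called in CD8 cells (adjusted p = 0.698 in edgeR), where its groups overlapped. It measured 5.40 ± 2.78 CPM in CD8+CD127-PD-1+ cells, against 4.38 ± 2.43 CPM in CD8+CD127+PD-1- cells. The part of macrophages and monocytes was not tested.

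Of the 2 tested SMADs outside the list of 10, Smad5, which carries BMP signals, was lower in both lineages, and the list's median log2 fold change was -0.29 in CD4 cells and -0.26 in CD8 cells. It measured 29.2 ± 0.875 CPM in CD4+CD127-PD-1+ cells, compared with 44.4 ± 4.98 CPM in CD4+CD127+PD-1- cells (a log2 fold change of -0.60, SE 0.14, adjusted p = 0.0205 in edgeR), and 28.2 ± 3.03 CPM in CD8+CD127-PD-1+ cells, compared with 38.1 ± 2.14 CPM in CD8+CD127+PD-1- cells (-0.43, SE 0.13, adjusted p = 0.0402). The CD4 call was lost without CD4+CD127-PD-1+ replicate 1 (0.0808) or 2 (0.111) or CD4+CD127+PD-1- replicate 2 (0.0728), and on the CD4 libraries alone (0.0530). The CD8 call was lost without any one of the 6 CD8 libraries (up to 0.120) and without CD4+CD127+PD-1- replicate 1 (0.0501) or 3 (0.0549). It was also lost on the CD8 libraries alone (0.0624) and with no filter on low counts (0.0596).

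Of 17 tested inhibitors and turnover enzymes, 1 rose and 0 fell in CD4+CD127-PD-1+ cells, where 11.7% of all genes tested were called, and 0 rose and 2 fell in CD8+CD127-PD-1+ cells, where 15.6% were. The list's median log2 fold change was -0.20 in CD4 cells and -0.18 in CD8 cells, against 0.02 and 0.01 over all genes tested. Pmepa1, a feedback inhibitor of the pathway, measured 35.4 ± 0.183 CPM in CD4+CD127-PD-1+ cells, compared with 22.8 ± 3.36 CPM in CD4+CD127+PD-1- cells (adjusted p = 0.0306), a call lost without CD4+CD127-PD-1+ replicate 1 (0.111) or 2 (0.115) or CD4+CD127+PD-1- replicate 1 (0.107) or 2 (0.0936), and on the CD4 libraries alone (0.0539). The ubiquitin ligase genes Peli1 and Smurf1 were called lower in CD8 cells only. Peli1 measured 285 ± 22.2 CPM in CD8+CD127-PD-1+ cells, compared with 594 ± 83.1 CPM in CD8+CD127+PD-1- cells (a log2 fold change of -1.06, SE 0.14, adjusted p = 0.000672). Smurf1, whose product marks receptors and SMADs for degradation, measured 16.7 ± 1.83 CPM in CD8+CD127-PD-1+ cells, compared with 26.4 ± 2.77 CPM in CD8+CD127+PD-1- cells (-0.66, SE 0.14, adjusted p = 0.00746). In CD4 cells Peli1 measured 363 ± 93.8 CPM in CD127-PD-1+ cells, against 515 ± 27.9 CPM in CD127+PD-1- cells. These groups did not overlap, and the log2 fold change was -0.51 (adjusted p = 0.0657 in edgeR). It passed at 0.0352 with DESeq2 and 0.0163 with no filter on low counts, and the highest over the other settings was 0.112. Smurf1 was not called in CD4 cells (-0.21, adjusted p = 0.437 in edgeR).

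Of 17 tested SMAD partners and adaptors, 1 rose and 0 fell in CD4+CD127-PD-1+ cells, and 3 rose and 1 fell in CD8+CD127-PD-1+ cells, with a median log2 fold change of 0.14 in each. Zfyve9 (SARA, an adaptor that brings SMAD2 and SMAD3 to the receptor) was higher in both, at 4.73 ± 3.11 CPM in CD4+CD127-PD-1+ cells, compared with 1.23 ± 0.381 CPM in CD4+CD127+PD-1- cells (adjusted p = 0.0261), and 6.92 ± 3.22 CPM in CD8+CD127-PD-1+ cells, compared with 1.05 ± 0.190 CPM in CD8+CD127+PD-1- cells (adjusted p = 0.00231). The CD4 call was lost without CD4+CD127-PD-1+ replicate 1 (log2 fold change 1.04 in place of 1.93, adjusted p = 0.279) and without CD4+CD127+PD-1- replicate 2 (0.0960) or 3 (0.0730). It was also lost with limma-voom (0.0958) and on the CD4 libraries alone (0.0528). Runx1, a transcription factor that partners SMADs, measured 325 ± 29.4 CPM in CD8+CD127-PD-1+ cells, compared with 189 ± 12.7 CPM in CD8+CD127+PD-1- cells (a log2 fold change of 0.78, SE 0.11, adjusted p = 0.00073). E2f5, which acts with SMADs in repression of cell cycle genes, was lower in CD8+CD127-PD-1+ cells, at 7.08 ± 0.830 CPM, compared with 12.03 ± 1.08 CPM in CD8+CD127+PD-1- cells (adjusted p = 0.0112, and 0.0509 without CD8+CD127-PD-1+ replicate 3). The co-activator gene Ep300 was the list's remaining call in CD8 cells, and it was higher. It measured 425 ± 16.6 CPM in CD8+CD127-PD-1+ cells, compared with 336 ± 18.7 CPM in CD8+CD127+PD-1- cells (a log2 fold change of 0.34, adjusted p = 0.0228 in edgeR). The Ep300 call was lost without CD8+CD127-PD-1+ replicate 3 and with the description numbers as replicate block.

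Of 10 tested genes that TGF-beta is known to raise in T cells, 1 rose and 0 fell in CD4+CD127-PD-1+ cells, where 11.7% of all genes tested were called, and 2 rose and 1 fell in CD8+CD127-PD-1+ cells, where 15.6% were. The list's median log2 fold change was 0.13 in CD4 cells and -0.59 in CD8 cells, against 0.02 and 0.01 over all genes tested. Rgs16, a regulator of G protein signalling, measured 92.7 ± 30.2 CPM in CD4+CD127-PD-1+ cells, compared with 9.16 ± 1.59 CPM in CD4+CD127+PD-1- cells (a log2 fold change of 3.34, SE 0.53, adjusted p = 0.00273), and 77.1 ± 61.6 CPM in CD8+CD127-PD-1+ cells, compared with 14.2 ± 5.67 CPM in CD8+CD127+PD-1- cells (2.43, SE 0.48, adjusted p = 0.00584). Junb, an AP-1 factor, fell in CD8 cells, to 76.5 ± 11.1 CPM in CD127-PD-1+ cells, against 116 ± 3.84 CPM in CD127+PD-1- cells (-0.60, SE 0.12, adjusted p = 0.00607). Ahr, the aryl hydrocarbon receptor gene, measured 41.7 ± 5.66 CPM in CD8+CD127-PD-1+ cells, compared with 18.1 ± 6.31 CPM in CD8+CD127+PD-1- cells (1.20, SE 0.34, adjusted p = 0.0327). The Ahr call was lost without any one of the 6 CD8 libraries (0.0584 to 0.0861) other than CD8+CD127+PD-1- replicate 1.

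Of 10 tested genes that TGF-beta is known to lower in T cells, 1 rose and 1 fell in CD4+CD127-PD-1+ cells, and in CD8 cells edgeR called 0, DESeq2 called 1, limma-voom called 0 and 1 (Fasl) had an unadjusted p under 0.05. Prf1 (perforin) measured 1.29 ± 0.453 CPM in CD4+CD127-PD-1+ cells, compared with 5.24 ± 2.05 CPM in CD4+CD127+PD-1- cells (a log2 fold change of -2.02, SE 0.39, adjusted p = 0.0077, and 0.0617 without CD4+CD127-PD-1+ replicate 2). Tbx21 (T-bet, the type 1 helper factor) measured 33.8 ± 0.896 CPM in CD4+CD127-PD-1+ cells, compared with 19.7 ± 0.665 CPM in CD4+CD127+PD-1- cells (a log2 fold change of 0.77, SE 0.21, adjusted p = 0.0356). The Tbx21 call was lost without any one of the 5 CD4 libraries (0.0828 to 0.134). The median log2 fold change of the list was 0.37 in CD4 cells and 0.09 in CD8 cells.

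**Figure D5:**
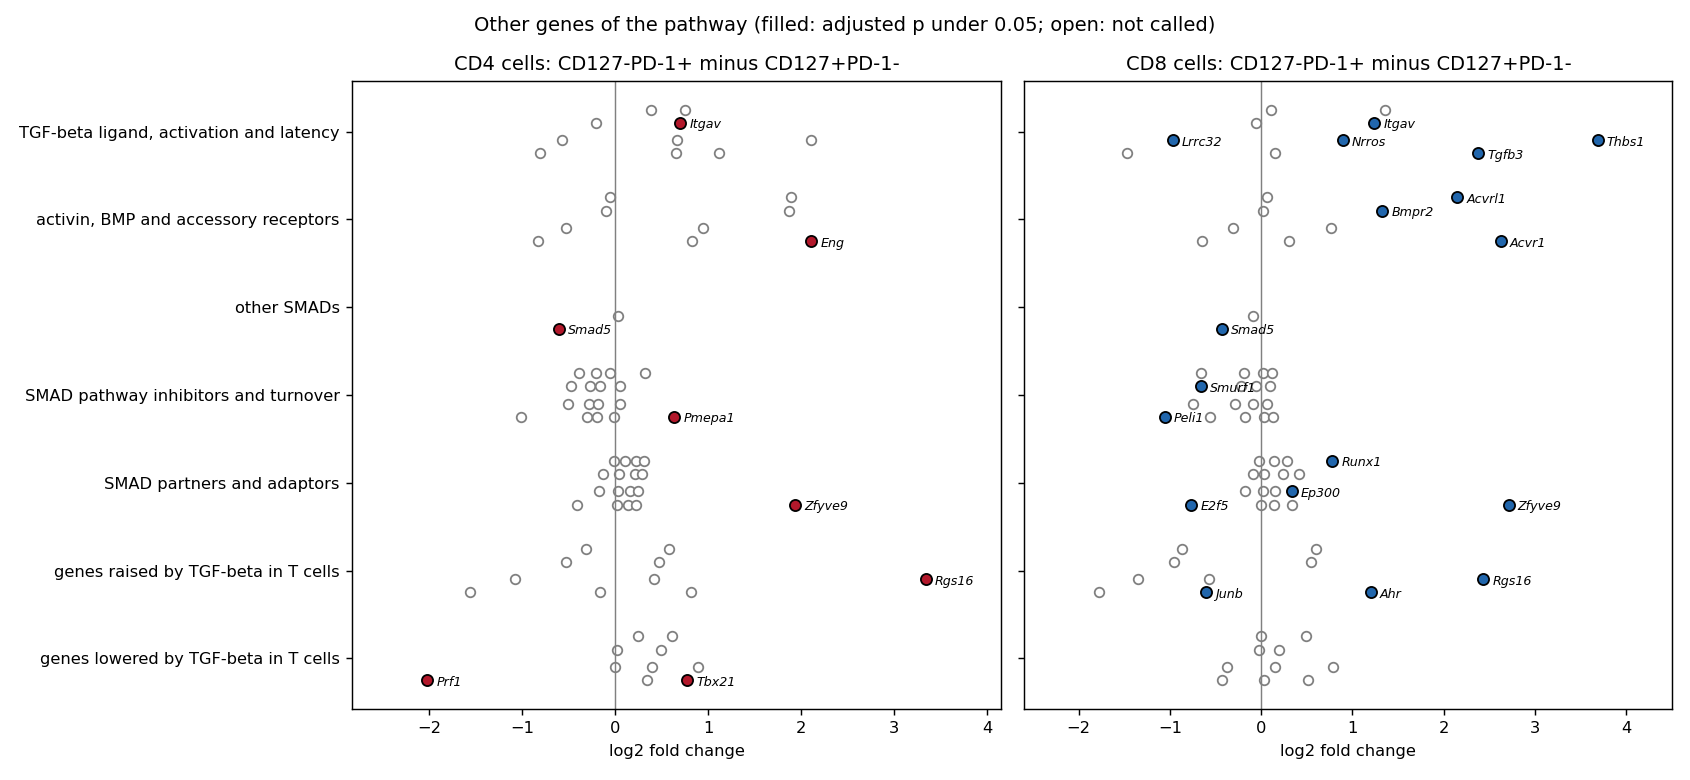
Log2 fold change of CD127-PD-1+ over CD127+PD-1- cells for the tested genes of the 7 pathway lists, in CD4 cells (left) and CD8 cells (right), with 1 point for each gene, filled and named where the adjusted p is under 0.05. Most points are open, and filled points lie on both sides of 0, with Thbs1, Zfyve9 and Acvr1 the filled points farthest to the right in CD8 cells.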

How the data were processed

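RNA from kidney T cells sorted into 4 populations was measured by RNA-seq. Per the labels' protocols, libraries were made from 2 ng total RNA by single primer isothermal amplification and sequenced as 75-base single reads. The submitters' processing notes name STAR, featureCounts and GRCm38. Their versions, the annotation and the strand setting of the counting were not given in the sources used here. The authors deposited raw counts of reads per gene (46078 genes), and the 11 labelled libraries were taken as deposited. The table holds 1 more column that matches no labelled sample, which stayed out.

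The analysis used edgeR 4.0.16 in R 4.3.3. Its filterByExpr default kept 16365 genes. TMM factors (trimmed mean of M values) scaled the library sizes. All 11 libraries entered 1 quasi-likelihood fit with a mean for each group, so the groups shared 1 estimate of the spread. P-values were adjusted by the Benjamini-Hochberg method over all 16365 genes, and a gene was called at an adjusted p under 0.05. CPM uses TMM-scaled library sizes. CPM per kilobase divides by the summed exon length of GENCODE M21, of the same build. The standard error (SE) of a log2 fold change is its size divided by the square root of F, and intervals are at 95%. The alternatives used DESeq2 1.42.0, limma 3.58.1 (voom), other filters, scalings, blocks and sets of libraries. All 10 genes, and the 3 called genes with the smallest p of each pathway list in either state comparison, are named. Other called list genes are given as their list's remainder. A further gene of the lists is not reported here and enters no list's count or median.

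Replicate numbers were checked for pairing by the correlation of the libraries' deviations from their group means. In CD127+PD-1- cells the 3 same-numbered pairs of a CD4 and a CD8 library correlated at 0.2085, 0.1473 and 0.3178, so that the blocked result is given beside that comparison. This fit was chosen after seeing the data. In the other comparisons this was not settled, since titles and descriptions number the libraries differently. Title-number pairs correlated on both sides of 0, and description-number pairs, of which no other comparison has over 2, at 0.0011 to 0.3255 (median 0.153, against -0.0815 for the 33 pairs of unlike number), so these blocks are alternatives only. The members and lists were chosen with earlier results of these data known.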

Additional observations from a re-analysis of the deposited data

How the results depend on the processing

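In the CD127/PD-1 comparisons Smad7 in CD4 cells, and Tgfbr1, Smad4 and Smad7 in CD8 cells, stayed called under every alternative run. Leaving out 1 library in turn, the number of the 10 genes called ran from 2 to 5 in CD4 cells, from 0 to 2 for CD4 against CD8 in CD127-PD-1+ cells and from 1 to 3 for CD4 against CD8 in CD127+PD-1- cells. In CD127-PD-1+ cells 0 were called on those libraries alone and 1 with the description numbers as replicate block, against 2. In CD127+PD-1- cells 5 were called with the description numbers as replicate block, and 6 with the block in those 6 libraries alone (chosen after seeing the data), against 3. Those added with the description numbers were Tgfbr3 (adjusted p = 0.0295) and Smad3 (0.0388). The title replicate block called Tgfb1 in CD8 cells (adjusted p = 0.0279, log2 fold change 0.51). The description replicate block did not call Tgfbr2 for CD4 against CD8 in CD127-PD-1+ cells (0.0968), nor Smad5 (0.0527), E2f5 (0.0665) and Ahr (0.0844) in CD8 cells, and the title block did not call Ahr either (0.0509). The description block called Acvrl1 in CD4 cells (0.0328). The description block also ended the call of Ep300 in CD8 cells. These blocks ended no other call of the 10 genes, or of the 3 genes with the smallest p named from each list. Title numbers correlated at -0.2092 to 0.3178 over 15 pairs and description numbers at 0.0011 to 0.3255 over 12. Over all genes, CD4 against CD8 gave 400 calls in CD127-PD-1+ cells, but 717 with DESeq2, 791 with no filter, 214 on those libraries alone and 126 to 443 leaving out 1 library. In CD127+PD-1- cells it gave 723, but 1192 with DESeq2, 1215 with no filter, 1707 with the block in those 6 libraries and 378 to 764 leaving out 1 library. The difference between lineages gave 1 call, but 60 with DESeq2, 85 with no filter, 0 with the title block and 0 to 5 leaving out 1 library. Among the lists in CD4 cells, inhibitors and turnover enzymes ran from 0 to 3 calls over other settings (against 1) and genes raised by TGF-beta from 1 to 3 (against 1). In CD8 cells genes raised by TGF-beta reached 6 with no filter (against 3), and SMAD partners and adaptors fell to 2 with the description block (against 4). Causes were not tested.

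The reversals were of log2 fold changes near 0 that were not called. They were Smad2 in CD4 cells without mitochondrial genes (-0.00501). With the description block they were Tgfbr3 for CD4 against CD8 in CD127-PD-1+ cells (-0.0146), Smad3 (0.0258) and Ski (-0.00861) for the difference between lineages, and Prf1 in CD8 cells (0.11). With the title block it was Smad4 for CD4 against CD8 in CD127-PD-1+ cells (-0.0286), and with the stricter filter Ski for the difference between lineages (-0.00043).

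Leaving out 1 library also turned signs. In CD4 cells the ranges were -0.0647 to 0.12 for Smad2, -0.18 to 0.38 for Smad3 and -0.00634 to 0.29 for Ski. In CD8 cells they were -0.0587 to 0.0321 for Tgfbr2 and -0.22 to 0.11 for Prf1. For CD4 against CD8 in CD127-PD-1+ cells they were -0.55 to 0.43 for Tgfbr1, -0.67 to 0.79 for Tgfbr3, -0.0891 to 0.12 for Smad2, -0.15 to 0.15 for Smad4 and -0.20 to 0.0818 for Smad7. In CD127+PD-1- cells they were -0.0215 to 0.34 for Tgfb1 and -0.0142 to 0.24 for Smad7. For the difference between lineages they were -0.99 to 0.00733 for Tgfbr1, -1.41 to 0.0603 for Tgfbr3, -0.16 to 0.0281 for Smad2, -0.41 to 0.16 for Smad3, -0.0265 to 0.26 for Smad4 and -0.15 to 0.14 for Ski.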
